A study of Mus musculus with 40 samples.

Results

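The genes described here are 10 genes of the endoplasmic reticulum (ER) stress response, Dnajb9, Hspa5, Hsp90b1, Xbp1, Atf4, Ddit3, Herpud1, Pdia4, Sdf2l1 and Calr, of 26411 genes in the count tables. They were chosen by gene symbol after Dnajb9 had been seen to be higher in Kat6a and Kat6b mutant embryos than in wild type (WT) embryos, to describe whether the other genes of the response were higher as well. The comparisons of mutant embryos with WT embryos therefore chose these genes. The values, fold changes, p-values and calls of the genes in those comparisons are given as a description and do not test the rise that chose them. All 10 genes passed the filter on low counts in embryos and in fetal liver cells.

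Proteins that enter the ER are folded with the help of luminal chaperones, and unfolded proteins that accumulate there set off the unfolded protein response through the sensors IRE1, ATF6 and PERK. IRE1 splices Xbp1 mRNA, and the encoded factor, together with ATF6, raises transcription of chaperones and of genes that remove misfolded proteins by ER-associated degradation. PERK slows translation and favours production of ATF4, which acts on genes of amino acid supply and oxidative stress and on Ddit3, whose product CHOP promotes cell death. Counts per gene measure the total mRNA of each gene. They show neither the splicing of Xbp1 nor the translation of Atf4.

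KAT6A and KAT6B are histone acetyltransferases. RNA was sequenced from 24 whole E9.5 mouse embryos of 6 genotypes, and from 16 samples of LSK cells of 4 genotypes, with 4 samples per genotype. LSK cells are lineage-negative SCA-1+ c-KIT+ cells, a population enriched in haematopoietic stem and progenitor cells, here sorted from E14.5 fetal liver. The embryos were Kat6a+/+;Kat6b+/+ (WT), Kat6a-/- (allele cfd, WT for Kat6b), Kat6b-/- (allele dec, WT for Kat6a), Kat6aE/E (both copies of Kat6a with G656E, WT for Kat6b), Kat6bE/E (both copies of Kat6b with G577E, WT for Kat6a) and Kat6aE/E;Kat6bE/E (both substitutions on both copies). The LSK samples were WT, Kat6aE/E, Kat6bE/E and Kat6aE/E;Kat6bE/E. G656E and G577E each replace a glycine with glutamate in the acetyltransferase domain. All alleles are germline alleles on a C57BL/6 background, so every cell of an embryo or fetus carries them.

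The embryo libraries held 8401990 to 23339359 counts and came from 17 litters, and the LSK libraries held 12270376 to 59216547 counts from 9 litters. Counts of whole genes did not check the null alleles, because the deletions remove part of each gene: Kat6a averaged 176 CPM (read pairs assigned to the gene, scaled to library size by TMM) in WT and 166 CPM in Kat6a-/- embryos, and Kat6b averaged 40.5 CPM in WT and 54.5 CPM in Kat6b-/- embryos. A list of haematopoietic markers of LSK cells summed to 1058 to 2264 CPM in LSK samples and to 210 to 264 CPM in embryos, and a neural list summed to 354 to 398 CPM in WT embryos and to no more than 0.15 CPM in LSK samples. The neural list summed to 220 to 325 CPM in Kat6a-/- and 238 to 351 CPM in Kat6b-/- embryos, below all WT embryos, and overlapped WT in the other 3 mutant genotypes, at 301 to 404 CPM in Kat6aE/E, 303 to 411 CPM in Kat6bE/E and 315 to 396 CPM in Kat6aE/E;Kat6bE/E. Its part in the results of the null embryos was not tested. Embryo Kat6aE/E;Kat6bE/E replicate 2 stood apart from the other embryos. It had the highest value of all 24 embryos for 18.1% of genes tested and the lowest for 18.4%. For comparisons of its genotype with WT and with the nulls, counts, medians and named genes that it moves are given with and without it. In whole embryos and sorted populations, fewer cells of a type and less RNA per cell cannot be told apart.

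Per unit of gene length, the genes covered a wide range in WT samples. In WT embryos the luminal chaperones were the most abundant. Calr, a calcium-binding chaperone of glycoproteins, averaged 427 RPKM (CPM per kilobase of gene length), Hsp90b1, the ER form of HSP90, averaged 358 RPKM, and Hspa5, which encodes the central chaperone BiP, averaged 355 RPKM. Atf4 averaged 123 RPKM and Pdia4, a disulfide isomerase, averaged 109 RPKM. Xbp1 and Sdf2l1, a partner of BiP, averaged 37.9 and 37.0 RPKM, and Herpud1, which organises ER-associated degradation, averaged 17.1 RPKM. Ddit3 at 7.28 RPKM and Dnajb9 at 6.71 RPKM were the lowest. Dnajb9 encodes ERdj4, a BiP co-chaperone that promotes degradation of misfolded proteins and restrains IRE1. Its length-scaled level was near the middle of all genes tested, at percentile 47.6.

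Dnajb9 was higher in every mutant embryo than in every WT embryo. In WT embryos it measured 12.8, 11.92, 11.84 and 12.7 CPM in replicates 1 to 4, a mean of 12.3 ± 0.506 CPM (SD, n = 4). In Kat6a-/- embryos it measured 14.21, 15.47, 16.66 and 15.73 CPM. In Kat6b-/- embryos it measured 17.01, 17.15, 16.41 and 14.34 CPM. These 8 null embryos lay above the WT range. In Kat6aE/E embryos the values were 14.32, 15.9, 14.68 and 12.98 CPM, the last just above the highest WT embryo. In Kat6bE/E embryos they were 14.77, 15.15, 18.02 and 15.92 CPM. The Kat6aE/E;Kat6bE/E embryos had values of 17.63, 16.16, 19.01 and 14.39 CPM. These values rest on 139 to 369 read pairs per embryo. A gap between all 20 mutant and all 4 WT embryos, in either direction, was present in 0.0423% of genes tested, or 6 of 14183, of which Dnajb9 was the 1 gene higher in mutants. Since Dnajb9 was chosen for this pattern, the share is a description.

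**Figure D1:**
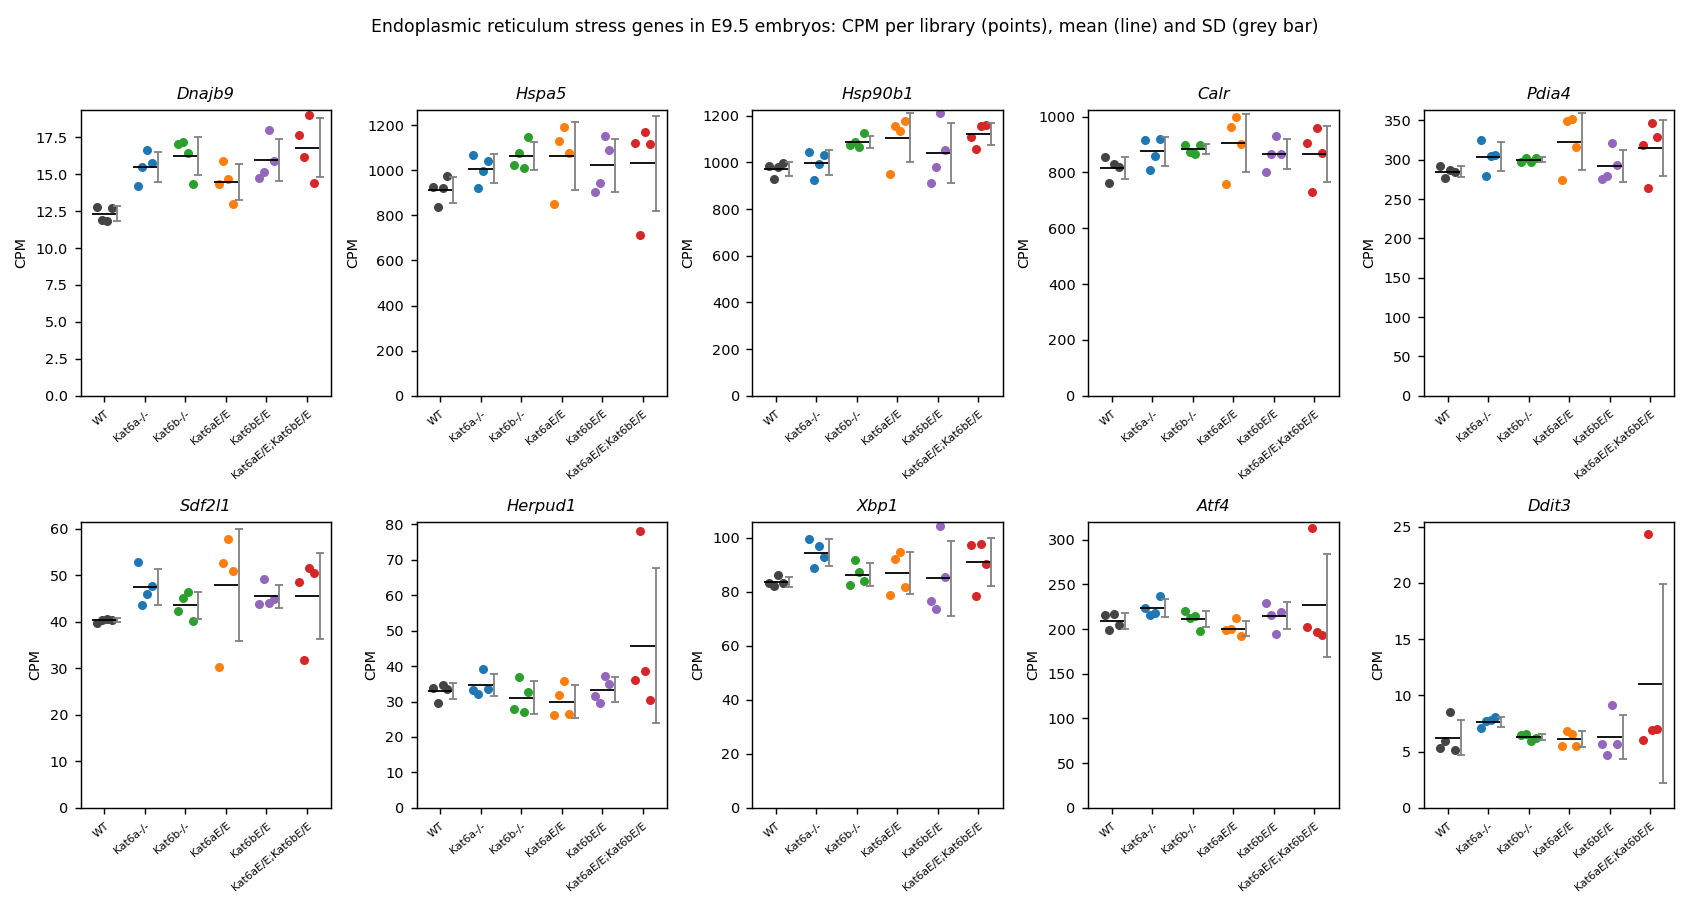
Expression of the 10 genes in the 24 E9.5 embryos, in CPM scaled by TMM, 1 panel per gene and 1 column per genotype. Points are embryos, and the grey bars beside them are the SD (n = 4), with black lines at the means. Dnajb9 is above the WT range in 20 of 20 mutant embryos, whereas each of the other genes has mutant embryos within the WT range, and 1 Kat6aE/E;Kat6bE/E embryo stands far from its group for Hspa5, Atf4, Ddit3, Herpud1 and Sdf2l1.

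For the other 9 genes the mutant embryos overlapped the WT range. Of 20 mutant embryos, 17 lay above all WT embryos for Sdf2l1, 16 for Calr, 15 each for Hspa5, Hsp90b1 and Pdia4, and 12 for Xbp1. The count was 8 for Herpud1, 7 for Atf4 and 2 for Ddit3. Some mutants lay below all WT embryos instead, 5 each for Xbp1 and Atf4, 4 for Herpud1, 3 for Pdia4, 2 each for Hsp90b1, Sdf2l1 and Calr, and 1 each for Hspa5 and Ddit3. The share of all genes with such counts was not computed, so the counts cannot be read as a broad rise. They share the same 4 WT embryos, which spanned only 39.7 to 40.7 CPM for Sdf2l1, and the chaperones vary together.

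The promoter windows of Hspa5, Hsp90b1, Calr and Herpud1 held known elements of the response. The pieces that hold them are shown because they are what several of the 10 genes share in sequence. The ER stress response element (ERSE), spelled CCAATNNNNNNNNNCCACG, binds NF-Y together with ATF6 or XBP1. It was searched on both strands from 250 bases before to 50 bases after the annotated start of each gene, in RefSeq promoter windows of GRCm38.p6, in which all 10 genes had an entry. ERSE was present in 39 of 32851 windows (0.119%), among them those of Hspa5, Hsp90b1 and Calr. The shorter ERSE-II, in which ATTGG and CCACG are separated by 1 base, was present in 12 windows (0.0365%), among them that of Herpud1. The pieces of 30 bases are written on the strand of the gene, 5′ to 3′, with the fixed letters of the element in capitals, and an element on the opposite strand reads as its reverse complement. Positions are those of the exact match in GRCm39.
Hspa5 (chr2:34662032-34662061, plus strand, 70 to 41 bases before the annotated start): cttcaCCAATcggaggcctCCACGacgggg
Hsp90b1 (chr10:86541496-86541525, minus strand, 217 to 188 bases before the start): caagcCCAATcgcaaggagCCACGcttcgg
Hsp90b1 (chr10:86541391-86541420, minus strand, 112 to 83 bases before the start): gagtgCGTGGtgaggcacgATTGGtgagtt
Calr (chr8:85573698-85573727, minus strand, 167 to 138 bases before the start): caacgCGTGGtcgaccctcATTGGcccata
Herpud1 (chr8:95112996-95113025, plus strand, 61 to 32 bases before the start): cgggcgctgATTGGgCCACGttggacactg
In GENCODE vM39, the first Hsp90b1 piece and the Calr piece lay outside annotated exons, and the other 3 pieces overlapped exons of transcripts that start further upstream. Herpud1 also held the C/EBP-ATF element TTGCATCA, which was present in 0.895% of windows. The XBP1 element TGACGTGG was present in 0.676% of windows and in no window of these 10 genes. These letters were not found in the windows of Dnajb9, Xbp1, Pdia4, Sdf2l1, Atf4 and Ddit3.

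Hspa5 and Hsp90b1 lay wholly above WT in Kat6b-/- embryos and only in part or not at all in most of the others. In WT embryos Hspa5 measured 924.2, 836.5, 919.4 and 975.2 CPM. In Kat6b-/- embryos it measured 1023, 1074, 1010 and 1145 CPM, all above WT. In Kat6aE/E embryos it measured 848.3, 1128, 1194 and 1076 CPM, where replicate 1 lay within the WT range and the other 3 lay above it. It measured 1121, 714, 1169 and 1117 CPM in Kat6aE/E;Kat6bE/E embryos, and replicate 2 had the lowest value of all embryos. Hsp90b1 measured 983.1, 928.1, 981.2 and 999 CPM in WT embryos and 1107, 1059, 1154 and 1163 CPM in Kat6aE/E;Kat6bE/E embryos. The groups did not overlap, and replicate 2 lay nearest to WT. Kat6b-/- embryos, at 1073, 1087, 1064 and 1126 CPM, also lay above WT for Hsp90b1. Kat6a-/- embryos, at 1046, 923.5, 993.9 and 1033 CPM, overlapped WT.

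Calr, Pdia4 and Sdf2l1 followed the same order of embryos within Kat6aE/E. In this genotype Calr measured 760.1, 963.8, 998.2 and 901.7 CPM, against 855.4, 762.8, 829.3 and 819.6 CPM in WT. Pdia4 measured 274.2, 349.4, 351.4 and 316.5 CPM, against 292.6, 276.3, 286.5 and 284.6 CPM in WT. Sdf2l1 measured 30.35, 52.62, 57.85 and 50.83 CPM, against 39.7, 40.3, 40.68 and 40.41 CPM in WT. For all 3 genes Kat6aE/E replicate 1 was below all WT embryos and the other 3 replicates were above them. Kat6aE/E replicate 1 was also the littermate of WT replicate 2, which had the lowest WT values of Hspa5, Hsp90b1, Pdia4 and Calr.

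Xbp1 was higher than WT without overlap in Kat6a-/- embryos, at 99.79, 88.72, 97.12 and 92.76 CPM against 83.13, 82.15, 86.36 and 83.18 CPM. In the other mutants it overlapped WT, and in Kat6bE/E embryos it spread from 73.55 to 104.3 CPM. Atf4 overlapped WT in all 5 mutant genotypes. It measured 215.5, 198.7, 216.8 and 204.7 CPM in WT embryos and 203, 313.1, 197 and 193.4 CPM in Kat6aE/E;Kat6bE/E embryos. Ddit3 measured 5.363, 5.917, 8.543 and 5.145 CPM in WT embryos and 7.058, 7.704, 7.82 and 8.054 CPM in Kat6a-/- embryos, which overlapped because of WT replicate 3. In Kat6aE/E;Kat6bE/E embryos Ddit3 measured 5.992, 24.34, 6.885 and 6.977 CPM, and Herpud1 measured 36.12, 78.04, 38.55 and 30.34 CPM. For Atf4, Ddit3 and Herpud1, replicate 2 was the embryo far above the rest.

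Fold changes were fitted with litter and 4 surrogate variables (unmeasured sources of variation estimated from all genes) in the model, and a gene is called at a false discovery rate (FDR) under 0.05 over all genes tested. The log2 fold change of Dnajb9 against WT was 0.35 ± 0.09 (SE) in Kat6a-/-, 0.45 ± 0.09 in Kat6b-/-, 0.20 ± 0.09 in Kat6aE/E, 0.39 ± 0.09 in Kat6bE/E and 0.50 ± 0.09 in Kat6aE/E;Kat6bE/E. The 95% confidence intervals of these 5 estimates overlapped, and the lowest bound was 0.01 in Kat6aE/E. Over the 20 alternatives of each comparison the estimate ranged from 0.33 to 0.38, 0.39 to 0.47, 0.17 to 0.26, 0.31 to 0.43 and 0.42 to 0.58 in the same order. It was called in 7, 9, 0, 0 and 17 of the 20. In Kat6a-/- the omission of any 1 of the 8 libraries compared ended the call, and in Kat6b-/- the omission of any WT library or of Kat6b-/- replicate 2 or 3 did. The direction of Dnajb9 did not depend on these choices, whereas the call did. Since these comparisons chose Dnajb9, neither its direction nor its calls in them are independent support for its rise.

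**Figure D2:**
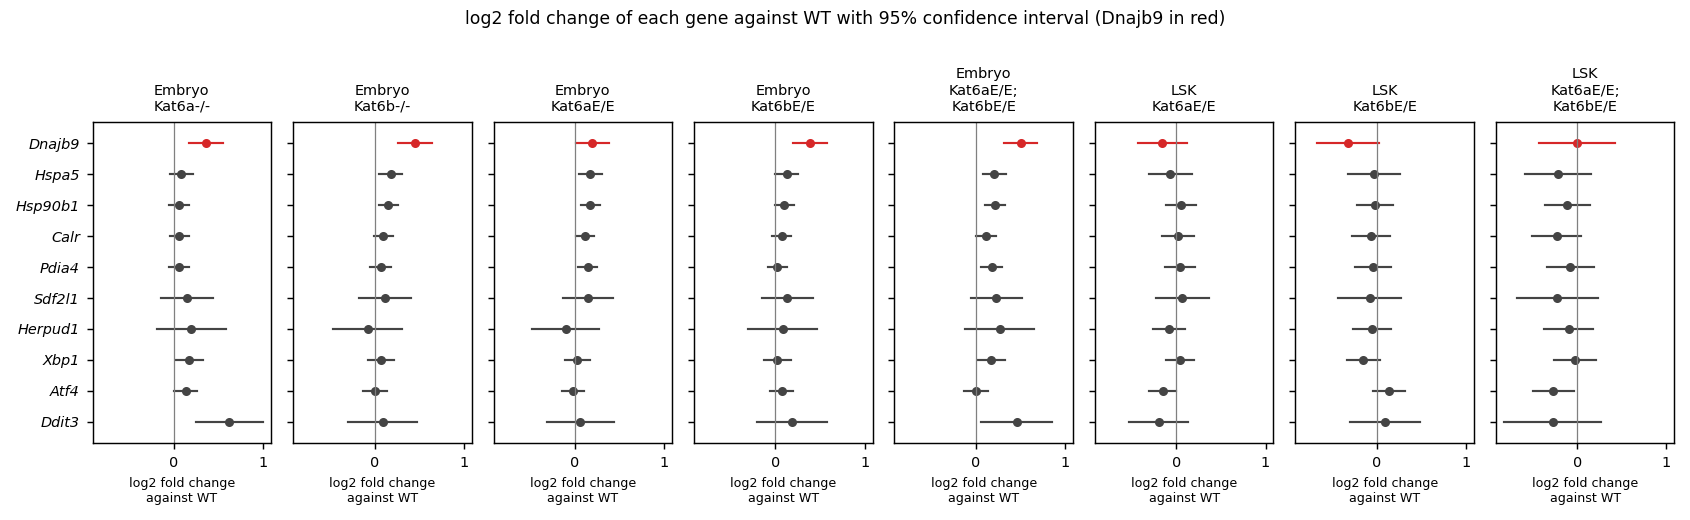
Log2 fold changes of the 10 genes against WT in 5 embryo and 3 LSK comparisons. Points are fitted estimates, horizontal bars are 95% confidence intervals, Dnajb9 is drawn in red and the vertical line marks 0. In embryos the estimates of Dnajb9 lie above 0 in all 5 genotypes, and in LSK cells its 3 intervals include 0.

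In Kat6a-/- embryos, 1 of 10 genes was called, Dnajb9, where 2.64% of all genes tested were called. All 10 estimates were above 0, with a median log2 fold change of 0.14, and 3 genes had an unadjusted p under 0.05, which held for 16.9% of all genes tested. Ddit3 was at 0.62 ± 0.18, but between 0.30 and 0.76 over the alternatives, with the lowest value in DESeq2 without surrogate variables, and it was called in none of them. Xbp1 was at 0.17 ± 0.07. The chaperones lay near 0, with Hspa5 at 0.08 ± 0.06 and Hsp90b1 at 0.05 ± 0.05. The values of Dnajb9, Xbp1 and Sdf2l1 did not overlap WT, compared with 11.9% of all genes tested.

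In Kat6b-/- embryos, 1 of 10 genes was called, Dnajb9, where 0.508% of all genes tested were called. The median of the 10 genes was 0.09, 9 were above 0, and 3 had an unadjusted p under 0.05, which held for 12.1% of all genes tested. Here the chaperones were next to Dnajb9, with Hspa5 at 0.18 ± 0.06 and Hsp90b1 at 0.16 ± 0.05, whereas Atf4 was at 0.00 and Herpud1 at -0.08. Dnajb9, Hspa5, Hsp90b1, Pdia4 and Calr did not overlap WT, compared with 6.61% of all genes tested.

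In Kat6aE/E embryos none of the 10 genes was called by limma, where 0.275% of all genes tested were called. Their median was 0.13, 8 were above 0, and 5 had an unadjusted p under 0.05, which held for 10% of all genes tested. The edgeR quasi-likelihood test and DESeq2 also called 0. The estimates of Hspa5 at 0.17 ± 0.06, Hsp90b1 at 0.17 ± 0.05, Sdf2l1 at 0.15 ± 0.13 and Pdia4 at 0.14 ± 0.05 lay close to that of Dnajb9. Without Kat6aE/E replicate 1, 5 genes were called, Hspa5 at 0.28, Hsp90b1 at 0.25, Pdia4 at 0.23, Sdf2l1 at 0.37 and Calr at 0.21, while Dnajb9 was at 0.20 and not called. In that fit 0.518% of all genes tested were called, the median of the 10 genes was 0.20, and 10 of 24 luminal chaperones and folding enzymes were called, all higher. This omission was singled out after the data had been seen, because replicate 1 was low for these genes. Each of the 5 genes was called in 1 of the 20 alternatives. Replicate 1 was also the Kat6aE/E embryo with a WT littermate, and 4 of the 10 genes were higher in it than in that littermate. Only Dnajb9 did not overlap WT when all 4 replicates were kept, compared with 4.94% of all genes tested.

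In Kat6bE/E embryos none of the 10 genes was called by limma, by the edgeR quasi-likelihood test or by DESeq2, and 0% of all genes tested were called. The median of the 10 genes was 0.09, all 10 were above 0, and 1, Dnajb9, had an unadjusted p under 0.05, which held for 4.41% of all genes tested. The next estimates were those of Ddit3 at 0.18, Hspa5 and Sdf2l1 at 0.13 and Hsp90b1 at 0.10. Dnajb9 and Sdf2l1 did not overlap WT, compared with 2.31% of all genes tested.

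In Kat6aE/E;Kat6bE/E embryos 2 of 10 genes were called, Dnajb9 and Hsp90b1, where 2.91% of all genes tested were called. All 10 were above 0 with a median of 0.21, and 7 had an unadjusted p under 0.05, which held for 18.2% of all genes tested. Hsp90b1 was at 0.22 ± 0.05, Hspa5 at 0.21 ± 0.06, Pdia4 at 0.17 ± 0.05, Xbp1 at 0.17 ± 0.07 and Ddit3 at 0.46 ± 0.19. Hsp90b1 was not called without any 1 WT library or without Kat6aE/E;Kat6bE/E replicate 2, 3 or 4. Without replicate 2, Dnajb9 was at 0.50 and called, where 1.2% of all genes tested were called, and Hsp90b1 at 0.23, Hspa5 at 0.29, Pdia4 at 0.21 and Xbp1 at 0.21 were not called. Ddit3 was then at 0.21, Herpud1 at 0.06 and Atf4 at -0.10. The median of the 10 genes was again 0.21, with 9 above 0 and with 6 higher and 1 lower at an unadjusted p under 0.05, which held for 15.6% of all genes. Dnajb9 and Hsp90b1 did not overlap WT, compared with 7.31% of all genes tested. The 5 comparisons share the 4 WT embryos, so a WT embryo that is low for a gene raises all 5 estimates of it. The median of all genes tested was close to 0 in each.

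WT littermates were available for 3 mutant embryos. Dnajb9 measured 15.47 CPM in a Kat6a-/- embryo and 12.8 CPM in its WT littermate, 14.32 and 11.92 CPM in a Kat6aE/E embryo and its WT littermate, and 17.15 and 11.84 CPM in a Kat6b-/- embryo and its WT littermate. Dnajb9 was thus higher in the mutant of all 3 pairs. Of the 10 genes, the mutant was higher for 4, 4 and 8 respectively, with median log2 ratios of -0.00, -0.01 and 0.09. Kat6bE/E and Kat6aE/E;Kat6bE/E embryos shared no litter with WT embryos, so genotype and litter cannot be told apart by direct pairs in those groups.

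Comparisons between mutant genotypes asked whether the point mutants differed from the nulls. They do not use the WT embryos, but the mutant embryos on both sides took part in the choice of Dnajb9. A gene chosen for a rise in all mutants can differ little between them for that reason alone, so its intervals here are not an independent test. None of the 10 genes was called in any of 4 such comparisons by limma, by the edgeR quasi-likelihood test or by DESeq2. Between Kat6aE/E and Kat6a-/-, where 1.6% of all genes were called, the log2 difference of Dnajb9 was -0.16 ± 0.09, with a 95% interval from -0.35 to 0.03. In this comparison 3 genes had an unadjusted p under 0.05, Hsp90b1 higher and Atf4 and Ddit3 lower in Kat6aE/E, with Ddit3 at -0.56 ± 0.19 (FDR 0.13), while 15.6% of all genes had one. Between Kat6bE/E and Kat6b-/-, where 0.0353% were called, Dnajb9 differed by -0.07 ± 0.09 (-0.25 to 0.12), and none of the 10 genes had an unadjusted p under 0.05. Kat6aE/E;Kat6bE/E differed from Kat6a-/- by 0.15 ± 0.09 (-0.04 to 0.34) for Dnajb9, where 0.00705% were called and 2 of the 10 genes and 10.4% of all genes had an unadjusted p under 0.05. It differed from Kat6b-/- by 0.05 ± 0.08 (-0.13 to 0.22), where 0.212% were called and none of the 10 had an unadjusted p under 0.05. Each of the 4 intervals of Dnajb9 included 0. Without Kat6aE/E;Kat6bE/E replicate 2 the last 2 differences of Dnajb9 were 0.14 and 0.04, and 0 of the 10 genes were called.

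Wider lists of the same pathways were described in the same embryo comparisons, again without a test of the lists. The luminal chaperones and folding enzymes (24 genes tested, among them Hspa5, Hsp90b1, Pdia4, Sdf2l1 and Calr) had median log2 fold changes of 0.05 in Kat6a-/-, 0.08 in Kat6b-/-, 0.12 in Kat6aE/E, 0.07 in Kat6bE/E and 0.14 in Kat6aE/E;Kat6bE/E. In Kat6a-/- and Kat6bE/E 0 of 24 were called. In Kat6b-/- 1 was called, Dnajc3, an inhibitor of PERK, at 0.27 ± 0.06. In Kat6aE/E 1 was called, the disulfide isomerase Pdia3 at 0.19 ± 0.04, and 15 of 24 were higher at an unadjusted p under 0.05, against 4.27% of all genes tested. In Kat6aE/E;Kat6bE/E 5 were called, all higher, with the smallest p for the ER oxidase Ero1a at 0.53 ± 0.09, the glycoprotein chaperone Canx at 0.17 ± 0.04 and Hsp90b1. Without replicate 2 of that genotype the median was 0.14 and 1 of 24 was called. Canx was at 0.20 and called, while Ero1a was at 0.31 and Dnajc3 at 0.30 and neither was called.

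The other ER lists held fewer calls. The ER-associated degradation list (19 genes, Dnajb9 and Herpud1 among them) had medians of 0.01 in all 5 genotypes. In Kat6a-/- and Kat6b-/- Dnajb9 was the 1 gene of this list that was called, and in Kat6aE/E and Kat6bE/E 0 were called. The list held 2 calls in Kat6aE/E;Kat6bE/E, Dnajb9 higher and the extraction ATPase Vcp lower at -0.21 ± 0.04. The translocation and secretion list (24 genes) held 3 calls, all in Kat6aE/E;Kat6bE/E, the cargo receptor Lman1 at 0.18 ± 0.04, the signal peptidase subunit Spcs3 at 0.23 ± 0.05 and the microsomal HSP70 relative Hspa13 at 0.24 ± 0.06. Without replicate 2 of that genotype Lman1 and Spcs3 were called and Hspa13 was not. The sensors and regulators list (18 genes, Xbp1 among them) held 0 calls in the 5 comparisons. The cytosolic heat shock list (18 genes), which responds to unfolded protein outside the ER, held 1 call, the small heat shock protein Cryab at 0.32 ± 0.09 in Kat6a-/-. Its medians were 0.01 in Kat6a-/-, 0.05 in Kat6b-/-, 0.10 in Kat6aE/E, 0.06 in Kat6bE/E and 0.07 in Kat6aE/E;Kat6bE/E. In Kat6aE/E 6 of 18 were higher and 1 lower at an unadjusted p under 0.05, while 4.27% of all genes tested were higher. Without Kat6aE/E replicate 1 its median in Kat6aE/E was 0.16. Without Kat6aE/E;Kat6bE/E replicate 2 its median in that genotype was 0.14.

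The list of the PERK arm and amino acid response (24 genes tested, Atf4 and Ddit3 among them) had medians of 0.11 in Kat6a-/-, 0.01 in Kat6b-/-, -0.00 in Kat6aE/E, 0.07 in Kat6bE/E and 0.21 in Kat6aE/E;Kat6bE/E. In Kat6aE/E;Kat6bE/E 3 genes were called, Ddit4, an inhibitor of mTORC1, higher at 1.06 ± 0.25, the mitochondrial serine enzyme Shmt2 higher at 0.26 ± 0.06, and the cystine transporter Slc7a11 lower at -0.91 ± 0.22. Without replicate 2 the median of this list in Kat6aE/E;Kat6bE/E was 0.03. Ddit4 was then at 0.60 and Shmt2 at 0.10 and neither was called, whereas Slc7a11 was at -1.12 and called. The other 4 genotypes held 0 calls in this list. The 21 genes tested in embryos whose promoter window held ERSE had medians between 0.04 and 0.11, with 3 called in Kat6aE/E;Kat6bE/E, Canx, Dnajc3 and Hsp90b1, and 1, Dnajc3, called in Kat6b-/-. Without Kat6aE/E;Kat6bE/E replicate 2, 1 was called in that genotype, Canx.

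Embryo Kat6aE/E;Kat6bE/E replicate 2 showed high values of the PERK and amino acid list and low values of chaperones. It was the highest of 24 embryos for 21 of the 24 genes of the list, with a median log2 difference of 1.25 from the other 3 embryos of its genotype. Among all genes tested it was the highest for 18.1% and the lowest for 18.4%. Chac1, which breaks down glutathione, measured 55.0 CPM in it and 0.238 to 1.12 CPM in the other 23 embryos. Trib3, which dampens this response, measured 44.5 CPM against 3.38 to 11.2 CPM, and the stress-induced mTORC1 regulator Sesn2 measured 142 CPM against 20.8 to 26.7 CPM. Ddit4 measured 687 CPM against 30.8 to 124 CPM. In the same embryo 11 of 24 luminal chaperones and folding enzymes and 13 of 18 cytosolic heat shock genes were the lowest of all 24 embryos, with median log2 differences of -0.21 and -0.48. The cytosolic chaperone Hspa8 measured 947 CPM against 1287 to 1977 CPM. Dnajb9, at 16.16 CPM, lay within the range of 14.39 to 19.01 CPM of its genotype.

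**Figure D3:**
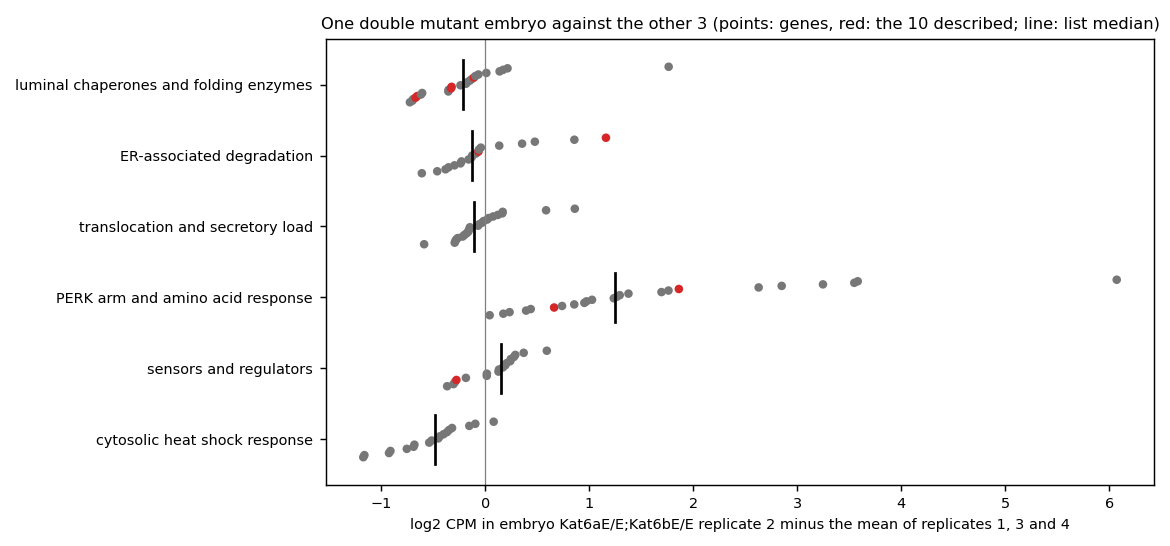
Log2 difference of embryo Kat6aE/E;Kat6bE/E replicate 2 from the mean of the other 3 embryos of its genotype. Each point is a gene, grouped by list, with the 10 genes in red, the black bars are list medians and the grey line marks 0. The PERK and amino acid list lies above 0 with a median of 1.25, and the cytosolic heat shock list lies below 0 with a median of -0.48.

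Within genotypes, the chaperones varied together, and Dnajb9 had lower correlations with them. Deviations of log2 CPM from the genotype mean were correlated across the 24 embryos and are described here by Pearson's r without a test. The embryos also differ in depth and litter. The paper matched their stage by external appearance, and any smaller difference in stage was not measured. The 10 pairs among Hspa5, Hsp90b1, Pdia4, Sdf2l1 and Calr had r from 0.54 to 0.95 with a median of 0.81. Dnajb9 had r from 0.09 to 0.35 with these 5 genes, with a median of 0.23. Without the 2 embryos farthest from the median for Dnajb9, an omission chosen after the data had been seen, the latter median was 0.50. The relation of Dnajb9 to the chaperones therefore rested on which embryos were kept. Dnajb9 values rest on 139 to 369 read pairs per embryo, far fewer than those of Hspa5, Hsp90b1 or Calr, and counting noise lowers r. A low r therefore cannot show that Dnajb9 varied apart from the chaperones. Dnajb9 was closest to Xbp1 among the other 9 genes, with r of 0.55 and Spearman's rho of 0.59 across 24 embryos.

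Among the embryos, Atf4, Ddit3 and Herpud1 appeared as a group of their own because of 1 embryo. Their 3 pairs had r from 0.73 to 0.84 across 24 embryos and from -0.19 to 0.45 without Kat6aE/E;Kat6bE/E replicate 2. The 15 pairs between the chaperones and these 3 genes had a median r of -0.35 with that embryo and 0.36 without it. With Herpud1, Dnajb9 had r of 0.22 with that embryo and 0.55 without it.

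**Figure D4:**
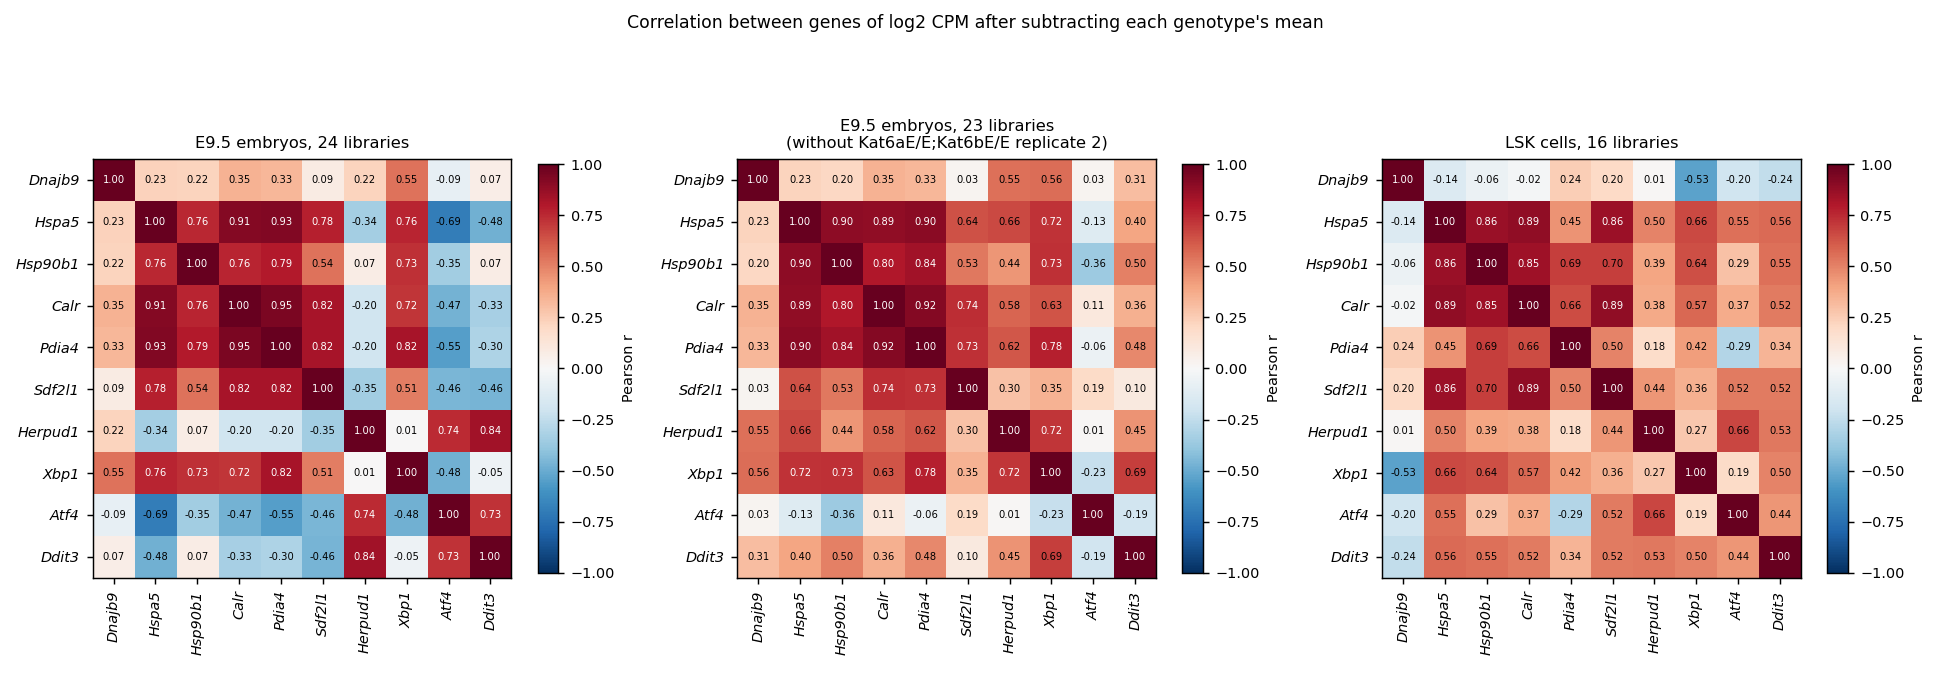
Pearson correlations between the 10 genes of deviations of log2 CPM from the genotype mean, in 24 embryos, in 23 embryos without Kat6aE/E;Kat6bE/E replicate 2 and in 16 LSK samples. Colour runs from -1 to 1. The block of Hspa5, Hsp90b1, Pdia4, Sdf2l1 and Calr is present in all 3 panels, and the block of Atf4, Ddit3 and Herpud1 among embryos is lost in the second.

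Ranked against all other 14182 genes tested, the genes whose deviations were most like those of Dnajb9 in embryos were Ccdc181 with r of 0.76, Inpp1 with 0.75, Cfap126 and Tmem177 with 0.71 and Tefm with 0.70. Xbp1 was at rank 77, Calr at 937, Pdia4 at 1127, Hspa5 at 2312, Hsp90b1 at 2507 and Herpud1 at 2533. Sdf2l1, Ddit3 and Atf4 were lower still, at ranks 5296, 5712 and 9146. Counting noise in Dnajb9 limits these ranks as well.

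LSK samples were not used to choose the genes, and they asked whether the point mutants raised Dnajb9 there too. No rise was called. Dnajb9 measured 13.03, 13.89, 18.35 and 16.33 CPM in WT, 12.72, 14.25, 14.81 and 14.86 CPM in Kat6aE/E, 15.13, 11.05, 10.66 and 12.46 CPM in Kat6bE/E and 16.78, 17.95, 20.11 and 10.9 CPM in Kat6aE/E;Kat6bE/E. These values rest on 187 to 936 read pairs per sample, and all 3 mutant groups overlapped WT. Kat6bE/E and Kat6aE/E;Kat6bE/E samples shared no litter with WT samples, so genotype and litter cannot be told apart by direct pairs there. Kat6aE/E replicate 1 had 3 WT littermates, in which Dnajb9 averaged 15.09 CPM against 12.72 CPM in it. Of the 10 genes, 8 were higher in this Kat6aE/E sample than in the mean of those littermates. The log2 fold change of Dnajb9 was -0.16 ± 0.13 (95% interval -0.43 to 0.12) in Kat6aE/E, -0.32 ± 0.16 (-0.67 to 0.02) in Kat6bE/E and -0.00 ± 0.20 (-0.43 to 0.42) in Kat6aE/E;Kat6bE/E. The FDR was 0.70 or above in each. The difference of the LSK and embryo fold changes, from 1 fit of all 40 libraries, was -0.39 ± 0.21 in Kat6aE/E, -0.72 ± 0.24 in Kat6bE/E and -0.53 ± 0.23 in Kat6aE/E;Kat6bE/E. It is given without a test because its embryo part chose the gene, and it keeps all libraries.

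**Figure D5:**
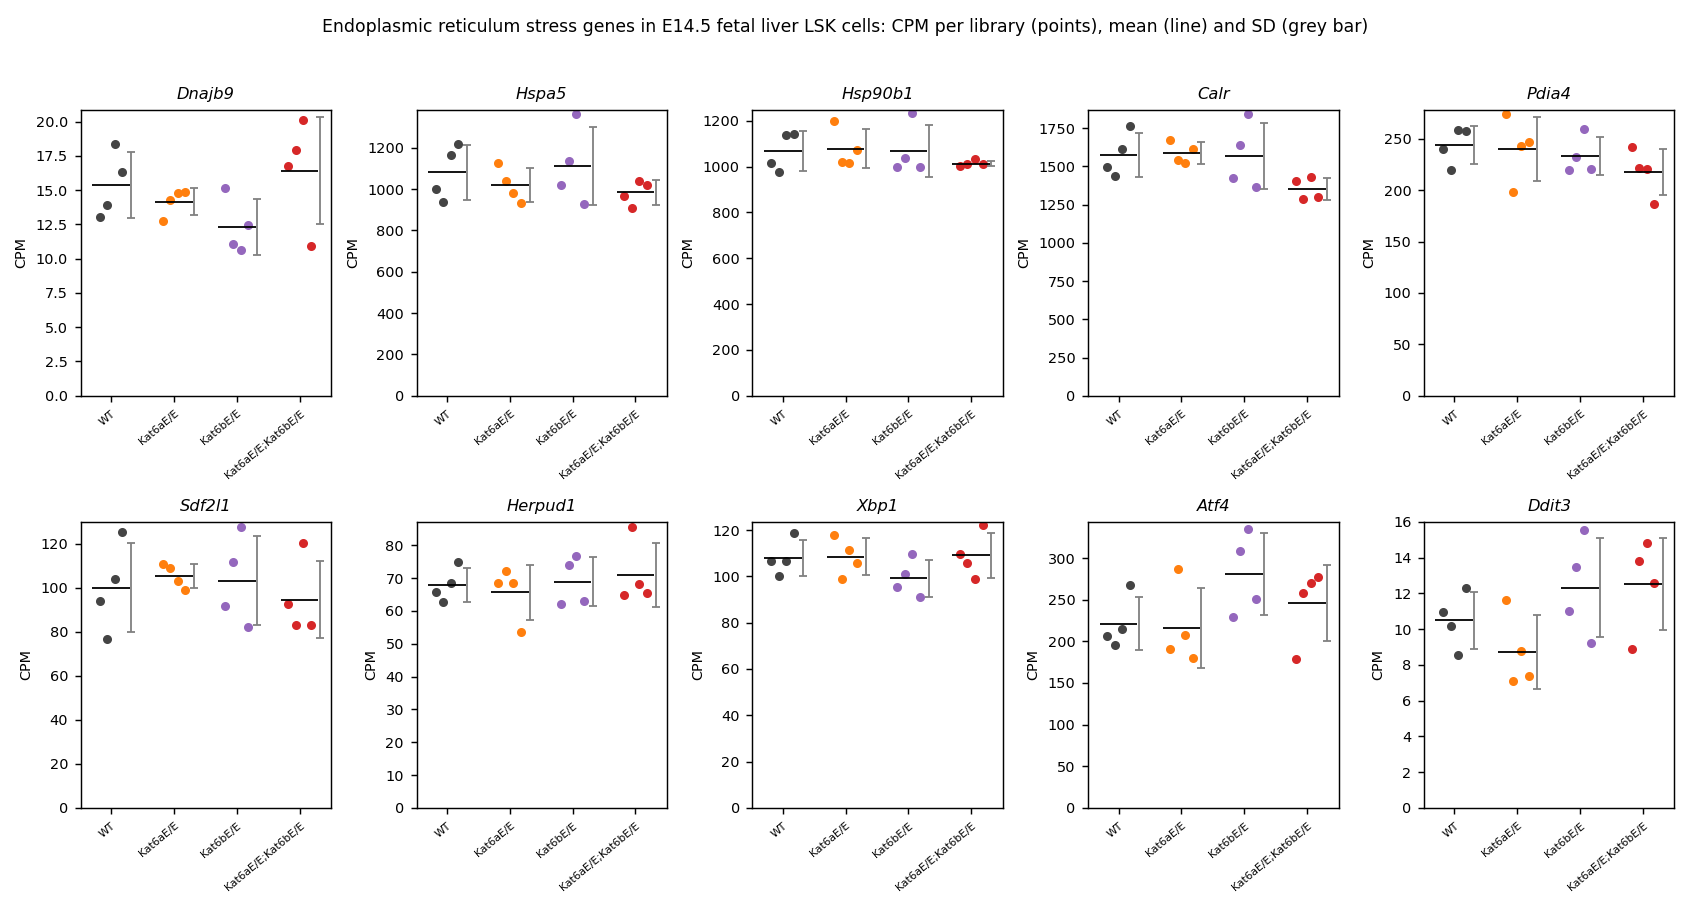
Expression of the 10 genes in the 16 LSK samples, in CPM scaled by TMM, 1 panel per gene and 1 column per genotype. Points are samples, and the grey bars beside them are the SD (n = 4), with black lines at the means. Mutant and WT values overlap for each gene and genotype except Calr in Kat6aE/E;Kat6bE/E, where the mutant samples lie below WT.

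None of the 10 genes was called against WT in LSK samples by limma, by the edgeR quasi-likelihood test or by DESeq2. Called genes made up 1.36% of all genes tested in Kat6aE/E, 0% in Kat6bE/E and 0% in Kat6aE/E;Kat6bE/E. In Kat6aE/E 1 gene, and 12.5% of all genes tested, had an unadjusted p under 0.05, Atf4 at -0.15 ± 0.07 (FDR 0.39), and in Kat6bE/E none had. Atf4 again was the 1 such gene in Kat6aE/E;Kat6bE/E, where 6.85% of all genes were, at -0.27 ± 0.11 (FDR 0.65), although its mean CPM was higher in the mutant, at 246 against 221 in WT. The sign of this Atf4 estimate was negative in 16 of 20 alternatives and ranged from -0.31 to 0.15.

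Calr was the 1 gene of the 10 whose mutant and WT values did not overlap in an LSK comparison. It measured 1494, 1437, 1615 and 1762 CPM in WT and 1404, 1288, 1429 and 1298 CPM in Kat6aE/E;Kat6bE/E. This held in Kat6aE/E;Kat6bE/E for 4.53% of all genes tested, and the log2 fold change was -0.23 ± 0.13 (-0.51 to 0.04, FDR 0.77). In this comparison all 10 estimates were below 0 with a median of -0.16, while without surrogate variables 4 were above 0 and the median was -0.10. Without Kat6aE/E;Kat6bE/E replicate 1, 2203 genes were called, Calr among them and lower. With all libraries kept, 0 of 13071 genes tested were called, so the call of Calr came with a general increase in calls. The markers of red cells summed to 714 to 8046 CPM in Kat6aE/E;Kat6bE/E and 525 to 2093 CPM in WT, and those of B and plasma cells to 14.4 to 43.8 CPM and 66.5 to 97.4 CPM. Their part in the lower Calr was not tested. In Kat6aE/E and Kat6bE/E none of the 10 genes was free of overlap with WT, compared with 4.1% and 3.92% of all genes tested. Taking all 12 mutant samples against WT, none was free of overlap, compared with 0.0612% of all genes.

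Between Kat6aE/E;Kat6bE/E and Kat6aE/E LSK samples, where 0% of all genes tested were called, none of the 10 genes was called or had an unadjusted p under 0.05 with limma, and the edgeR quasi-likelihood test and DESeq2 called 0 of the 10. Dnajb9 differed by 0.15 ± 0.21. Without Kat6aE/E;Kat6bE/E replicate 1, 2038 genes were called, among them Pdia4, Sdf2l1 and Calr.

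In the pathway lists, 0 genes were called against WT in the 3 LSK comparisons. The PERK and amino acid list (25 genes tested) had medians of -0.11 in Kat6aE/E, 0.10 in Kat6bE/E and -0.22 in Kat6aE/E;Kat6bE/E, and the luminal chaperones and folding enzymes had medians of 0.04, -0.02 and -0.10. In Kat6aE/E 6 genes of the PERK and amino acid list were lower and 1 was higher at an unadjusted p under 0.05, where 12.5% of all genes had one, and in Kat6aE/E;Kat6bE/E 3 were lower, where 6.85% had one. Across the 16 LSK samples the 5 chaperones again varied together, with r from 0.45 to 0.89 and a median of 0.77. The 3 pairs among Atf4, Ddit3 and Herpud1 had r from 0.44 to 0.66 in LSK samples. Their 15 pairs with the chaperones had a median of 0.44. Dnajb9 had r from -0.14 to 0.24 with the chaperones and -0.53 with Xbp1, against 0.55 with Xbp1 in embryos. When the 2 LSK samples farthest from the median for Dnajb9 were left out, r was -0.25 to -0.11 with the chaperones. With Xbp1 it was then -0.24. This omission was chosen after the data had been seen, and these correlations rested on which samples were kept. Dnajb9 rests on 187 to 936 read pairs per LSK sample, and the part of counting noise in these values of r was not tested. The deviations most like those of Dnajb9 in LSK samples were those of Pigm, Chml and Zfp994 with r of 0.89 and Zbtb26 and Zbtb6 with 0.88, and of the other 9 genes Pdia4 came first at rank 3471 of 13070.

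Comparison of WT LSK samples with WT embryos showed which of the 10 genes differ in level between the tissues. Stage, tissue and preparation cannot be told apart in it, and 74.9% of all genes tested were called, with a median log2 difference of -0.10. Higher in LSK samples were Sdf2l1 by 1.24 ± 0.17, Herpud1 by 0.99 ± 0.17, Calr by 0.88 ± 0.08, Ddit3 by 0.75 ± 0.29 and Xbp1 by 0.30 ± 0.09 on the log2 scale, with FDR of 7.0e-08, 2.4e-06, 1.1e-11, 0.021 and 0.0025. Pdia4 was lower, at -0.32 ± 0.09 (FDR 0.0021). Dnajb9 at 0.29 ± 0.16 (FDR 0.11), Hspa5 at 0.16 ± 0.12, Hsp90b1 at 0.05 ± 0.07 and Atf4 at 0.07 ± 0.14 were not called. The edgeR quasi-likelihood test called the same 6 genes, and DESeq2 called 5 of them, without Ddit3. Without LSK WT replicate 4, Xbp1 and Ddit3 were not called, and without embryo WT replicate 4, Ddit3 was not. The order by length-scaled level was nearly kept, with Calr at 787 RPKM, Hspa5 at 401 RPKM and Hsp90b1 at 376 RPKM at the top of the LSK samples and Ddit3 at 11.7 RPKM and Dnajb9 at 8.01 RPKM at the bottom.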

How the data were processed

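The authors aligned read pairs to mm39 with Rsubread and deposited raw counts per RefSeq gene made with featureCounts; versions are not given in the sources used here. The counts cover 40 libraries. The unit used was the deposited count, and CPM were computed from it after TMM scaling. Gene types came from a RefSeq table by gene ID (26359 of 26411 genes matched, 52 left out).

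Following the study's methods, protein-coding genes off the Y chromosome were filtered with filterByExpr (14183 genes in embryos, 13071 in LSK samples), and voomLmFit was fitted per tissue with 4 surrogate variables, litter as a random block (correlation 0.107 and 0.331) and robust empirical Bayes moderation. LSK WT was compared with embryo WT in 1 fit of 40 libraries without surrogate variables (15123 genes). P-values were adjusted by the Benjamini-Hochberg method across all genes tested (FDR). Fits were run in R 4.3.3 with limma 3.58.1, edgeR 4.0.16 and DESeq2 1.42.0, and the procedure was tested on simulated data.

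The genes and lists were chosen with earlier results of these data known. All 10 genes are named in comparisons with WT, and at most 3 called genes per list by smallest p. Other genes, including those of embryo Kat6aE/E;Kat6bE/E replicate 2, were named after their values were seen. Replicates were separate embryos or fetuses. Alternatives were 0, 2 or 6 surrogate variables, fits that ignore litter, quasi-likelihood tests in edgeR (surrogate variables kept or dropped), DESeq2, its size factors, no filter, all gene types, replicate number as a block, only the 8 libraries compared, and omission of each library.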

Additional observations from a re-analysis of the deposited data

Results flagged for a closer look

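Each gene was checked in each group of 4 libraries for a value far from the other 3 by Dixon's ratio at its 95% critical value. Of 100 such groups 6 had one, where chance alone gives about 5, or 1 in 20, if the groups were independent. They are not, because genes share libraries and the chaperones vary together. Several of the 6 fall in the same library, embryo Kat6aE/E;Kat6bE/E replicate 2, so the count does not show that the flags are due to chance.

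In embryo Kat6aE/E;Kat6bE/E replicate 2, Hspa5 was low at 714 CPM against 1117 to 1169 CPM in the other 3, and Sdf2l1 was low at 31.8 CPM against 48.6 to 51.5 CPM. In the same embryo Atf4 was high at 313 CPM against 193 to 203 CPM, and Ddit3 was high at 24.3 CPM against 5.99 to 6.98 CPM. In LSK Kat6bE/E replicate 3, Hsp90b1 was high at 1235 CPM against 1000 to 1038 CPM. In LSK Kat6aE/E;Kat6bE/E replicate 2, Herpud1 was high at 85.6 CPM against 64.8 to 68.3 CPM.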

How the results depend on the processing

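The number of the 10 genes called in embryos moved with the model. In Kat6a-/- against WT it was 1, and 0 with 0 surrogate variables, with 2 surrogate variables, with the edgeR quasi-likelihood test without surrogate variables, with DESeq2 and with only the 8 libraries compared. In Kat6b-/- against WT it was 1, and 0 under the same 5 alternatives. In Kat6aE/E;Kat6bE/E against WT it was 2, and 0 with 0 surrogate variables, with the edgeR quasi-likelihood test without surrogate variables and with only 8 libraries, and 1 with 2 surrogate variables, with DESeq2 and without the filter. In Kat6aE/E against Kat6a-/- it was 0, and 1 (Atf4) with 6 surrogate variables. The causes were not tested. With 1 library left out the counts ranged from 0 to 0 in Kat6a-/-, 0 to 1 in Kat6b-/-, 0 to 5 in Kat6aE/E, 0 to 0 in Kat6bE/E and 1 to 2 in Kat6aE/E;Kat6bE/E against WT, 0 to 0 between embryo mutants, 0 to 0 in LSK Kat6aE/E and Kat6bE/E, 0 to 1 in LSK Kat6aE/E;Kat6bE/E against WT, 0 to 3 against Kat6aE/E, and 4 to 6 in LSK WT against embryo WT.

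Samples with the same replicate number deviated together in some pairs only (correlations from 0.02 to 0.28 in Kat6a-/- and from -0.43 to 0.14 in LSK Kat6aE/E), so the numbers were taken as names. With replicate number as a block the count was 2 in Kat6b-/- (Dnajb9 and Hspa5), 3 in Kat6aE/E;Kat6bE/E (Dnajb9, Hspa5 and Hsp90b1) and otherwise as without it. Over the alternatives, calls among all genes reached 200 in Kat6b-/- and 811 in Kat6aE/E;Kat6bE/E. The number in the fit with this block is not given, so the added calls cannot be read as particular to these genes.

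Over the alternatives other than left-out libraries, genes called among all tested ranged from 111 to 631 in Kat6a-/-, 0 to 200 in Kat6b-/-, 0 to 122 in Kat6aE/E, 0 to 811 in Kat6aE/E;Kat6bE/E, 3 to 491 in Kat6aE/E against Kat6a-/-, 0 to 30 in Kat6bE/E against Kat6b-/-, 0 to 99 and 0 to 50 in Kat6aE/E;Kat6bE/E against Kat6a-/- and Kat6b-/-, 0 to 267 in LSK Kat6aE/E, 0 to 262 in LSK Kat6aE/E;Kat6bE/E and 0 to 62 in LSK Kat6aE/E;Kat6bE/E against Kat6aE/E. In Kat6bE/E against WT they were 0 in embryos and LSK samples, and with 1 LSK library left out up to 96. Of 1244 log2 fold changes of named genes under these alternatives 89 lost and 3 gained a call, 9 moved by more than the replicate spread, and none that was called changed sign. The counts of Dnajb9, 139 to 369 per embryo, limit the precision of its fold change and of its correlations.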
